A study of Mus musculus with 6 samples.

Results

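The genes described here are 10 that mark or serve regulatory T cells, taken by symbol from the deposited count table of 54532 genes: Foxp3, Il2ra, Ikzf2, Ikzf4, Lrrc32, Gpr83, Capg, Nrp1, Entpd1 and Nt5e. All 10 were found once each, and all 10 were among the 13900 genes with enough reads to be tested. They were measured by bulk RNA sequencing in spleen CD4+ T cells of C57BL/6 mice, labelled naive, in 2 groups. One group was given NETs (neutrophil extracellular traps, chromatin that neutrophils release with proteins of their granules), and the other was given vehicle, with 3 libraries in each group. Both groups were cultured for 72 h with CD3/CD28 beads, IL-2, an anti-IFN-gamma antibody and an anti-IL-4 antibody, and the labels list no TGF-beta. The sources used here do not state the age of the mice, nor where the NETs came from or how much was added. They also do not say whether replicates are separate mice or cultures, and p-values here measure only how far these libraries differ, which may be technical.

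Regulatory T cells are CD4+ T cells that restrain other immune cells. Their identity is set by Foxp3, a forkhead transcription factor, which acts with partners that include the Ikaros family zinc finger proteins Helios (Ikzf2) and Eos (Ikzf4). They take up IL-2 through a receptor whose alpha chain is CD25 (Il2ra), and hold latent TGF-beta on their surface through GARP (Lrrc32). They turn extracellular ATP into adenosine through the ectoenzymes CD39 (Entpd1) and CD73 (Nt5e). Naive CD4+ T cells can also be made to express Foxp3 in culture by stimulation with TGF-beta and IL-2, and conventional T cells raise Il2ra when activated, so a transcript of these genes in bulk RNA does not count regulatory T cells. In bulk RNA, fewer cells of a type and less RNA per cell cannot be told apart.

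The libraries held between 15657622 and 18655997 counted reads. T cell markers were high in all of them: the 7 genes of the T cell list summed to 2872 to 3128 CPM (the read count scaled to the library's total) with NETs and 2966 to 3518 CPM with vehicle. The naive marker Ccr7 was also expressed, at 621 to 643 CPM over the 6 libraries. Of the 2 CD8 T cell markers, Cd8a stayed at or below 2.39 CPM and Cd8b1 lay at 12.2 to 18.8 CPM. Together they summed to 13.0 to 19.5 CPM with NETs and 18.4 to 20.8 CPM with vehicle. Lists for other cell types were low, but 2 of them did not overlap between groups. Macrophage and monocyte markers (8 genes, 4 of them under 1 CPM, mostly Lyz2) summed to 39.1 to 51.7 CPM with NETs and 28.1 to 38.0 CPM with vehicle, and neutrophil markers (11 genes, 10 of them under 1 CPM) to 4.83 to 6.20 CPM with NETs and 2.67 to 3.70 CPM with vehicle. S100a9, which encodes a cytosolic protein that neutrophils hold in large amounts, had 0.932, 1.30 and 1.17 CPM with NETs and 0 reads in each vehicle library. The other markers of that list did not all follow S100a9. S100a8 had 28 reads with NETs and 1 with vehicle, but Ltf had 19 and 23, and Mmp8 8 and 13. B cell markers summed to 14.5 to 20.9 CPM with NETs and 18.6 to 20.2 CPM with vehicle. Over all genes the libraries did not separate by group: on the first principal component (32.9% of the variance) NETs replicates 1 to 3 lay at 32.9, 11.9 and 0.177, and vehicle replicates 1 to 3 at -16.5, -40.0 and 11.45, so vehicle replicate 3 lay among the NETs libraries.

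The upstream sequence of 3 members is shown first, since 2 of these genes (Foxp3 and Nrp1) had levels that moved together across libraries while the third (Nt5e) stayed level. RefSeq's promoter table for GRCm38.p6 held 7 of the 10 members, and the windows below are the 250 bases before a RefSeq start, on the + strand, 5′ to 3′. Foxp3 has 2 such starts. The first window, chrX:7579426-7579675, ends at the base before the gene's deposited start, and the second, chrX:7580233-7580482, lies inside the gene. The Nrp1 window is chr8:128358823-128359072 and the Nt5e window chr9:88327359-88327608. Both also lie inside the deposited genes, which start at 128358604 (Nrp1) and 88327197 (Nt5e). Capitals mark letters of any of 4 searched motifs.
Foxp3, first start: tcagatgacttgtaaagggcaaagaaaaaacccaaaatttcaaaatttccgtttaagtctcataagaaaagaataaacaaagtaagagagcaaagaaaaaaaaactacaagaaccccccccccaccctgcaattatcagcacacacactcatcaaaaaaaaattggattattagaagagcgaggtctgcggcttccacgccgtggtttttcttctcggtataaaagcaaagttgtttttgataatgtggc
Foxp3, second start: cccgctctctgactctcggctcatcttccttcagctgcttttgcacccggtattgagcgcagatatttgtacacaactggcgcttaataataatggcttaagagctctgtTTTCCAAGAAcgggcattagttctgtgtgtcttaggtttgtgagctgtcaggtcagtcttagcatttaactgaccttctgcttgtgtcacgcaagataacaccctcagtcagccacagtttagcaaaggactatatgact
Nrp1: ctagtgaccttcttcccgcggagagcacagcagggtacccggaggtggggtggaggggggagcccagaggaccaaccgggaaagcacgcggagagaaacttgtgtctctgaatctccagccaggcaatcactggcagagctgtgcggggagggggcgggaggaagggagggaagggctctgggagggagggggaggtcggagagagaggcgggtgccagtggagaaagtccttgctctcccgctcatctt
Nt5e: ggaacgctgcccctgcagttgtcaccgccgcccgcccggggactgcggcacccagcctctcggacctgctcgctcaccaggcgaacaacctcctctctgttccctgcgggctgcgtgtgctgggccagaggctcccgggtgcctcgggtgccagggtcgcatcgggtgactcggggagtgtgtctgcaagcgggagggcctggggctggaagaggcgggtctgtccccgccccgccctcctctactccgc
The motifs searched, on both strands, were TTCNNNGAA (bound by STAT factors, which IL-2 activates), GTAAACA (forkhead), TGTGGT (RUNX) and TGGAAA (NFAT). Over the 32851 windows of the table, 7.02% held TTCNNNGAA, 3.17% GTAAACA, 14.0% TGTGGT and 18.6% TGGAAA. Of the 9 windows of the members, the second Foxp3 window was the one with a match: TTCCAAGAA stood at positions -139 to -131, counted back from the start, and overlapped the NFAT letters TTTCCA on the reverse strand at -140 to -135. The windows differed in base composition, with 37.6% and 46.0% G and C before the Foxp3 starts, 64.4% before the Nrp1 start and 72.0% before the Nt5e start. A match is a description of these letters, and a window without one says nothing of the factor.

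Per length, the regulatory genes spanned a 133-fold range. Levels between genes are compared here as FPKM, the authors' values per length and library size. Il2ra was highest, at a mean of 560.5 FPKM over the 6 libraries (range 491 to 625), above 98.9% of the genes tested. Capg followed at 268 FPKM (212 to 328). A middle group of 5 lay close together: Gpr83 at 48.2, Ikzf4 at 42.7, Lrrc32 at 42.6, Foxp3 at 36.8 and Nt5e at 35.9 FPKM. Neighbours within that group had overlapping ranges over libraries, so their order is not resolved. Foxp3, at 27.5 to 44.8 FPKM, lay above 72.1% of the genes tested, whose median was 14.3 FPKM. Ikzf2 was lower at 18.5 FPKM (13.9 to 22.8), and Nrp1 (5.58 FPKM) and Entpd1 (4.21 FPKM), which overlapped each other, were lowest. Of the 9 neighbouring pairs in this order, 5 overlapped. The order depends on the length used: with the deposited gene lengths in place of those behind the FPKM, Foxp3 came to 34.2, Gpr83 to 34.0, Lrrc32 to 26.5, Ikzf4 to 13.4 and Nt5e to 11.0 FPKM. The range then became 243-fold, from Il2ra at 194 to Entpd1 at 0.798 FPKM, and 2 of 9 pairs overlapped.

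**Figure D1:**
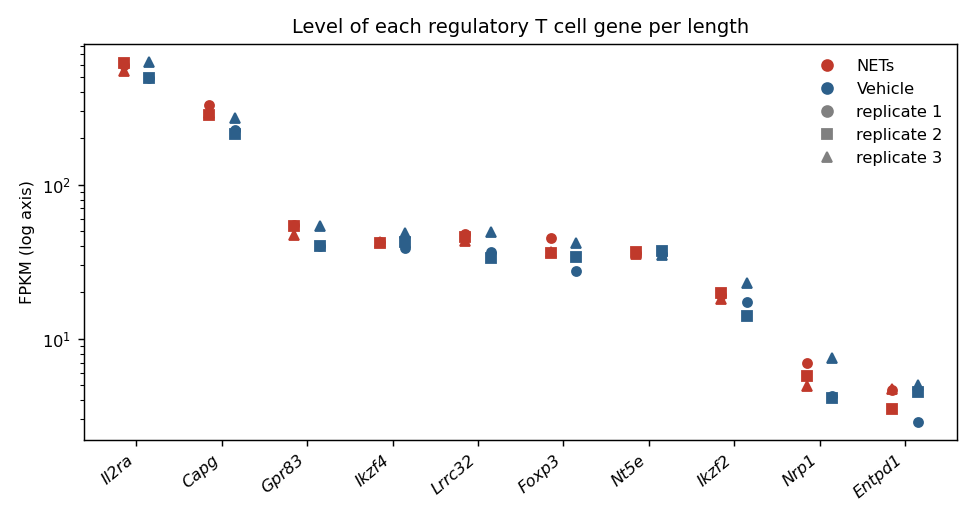
FPKM on a log axis for each gene, ordered by its mean over the 6 libraries, with 1 point per library (NETs left of vehicle, shape for the replicate). Il2ra and Capg stand above the rest, 5 genes from Gpr83 to Nt5e lie between 27.5 and 54.5 FPKM, and Nrp1 and Entpd1 are lowest.

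The first question was whether NETs changed these genes. None of the 10 passed edgeR's quasi-likelihood test at an adjusted p of 0.05 over all 13900 genes, where 0% of genes were called higher and 0% lower, and their adjusted p lay between 0.223 and 0.979. Of the 13900 genes limma-voom called 1 and limma-trend 2, with 0 members among them. DESeq2 called 129 of 8578 genes, with 0 members among them, and gave Entpd1 no adjusted p. In the edgeR fit 1776 genes had an unadjusted p under 0.05. Among them there was 1 member, Capg, of 10, against 6.72% of all genes tested that were higher at that p. The 3 NETs libraries lay wholly above the 3 vehicle libraries in 1 of 10 members, again Capg, against 7.68% of all genes, and wholly below them in 0 of 10, against 9.04%. The median log2 fold change (NETs over vehicle) of the 10 was 0.15, with 9 above 0, while over all genes tested the median was 0.001 and 50.2% lay above 0. The members were chosen with earlier results of these data known, and all but Nt5e followed each other over the libraries, as given below. These counts and shares are therefore descriptions. Each gene's values by library follow, by role.

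**Figure D2:**
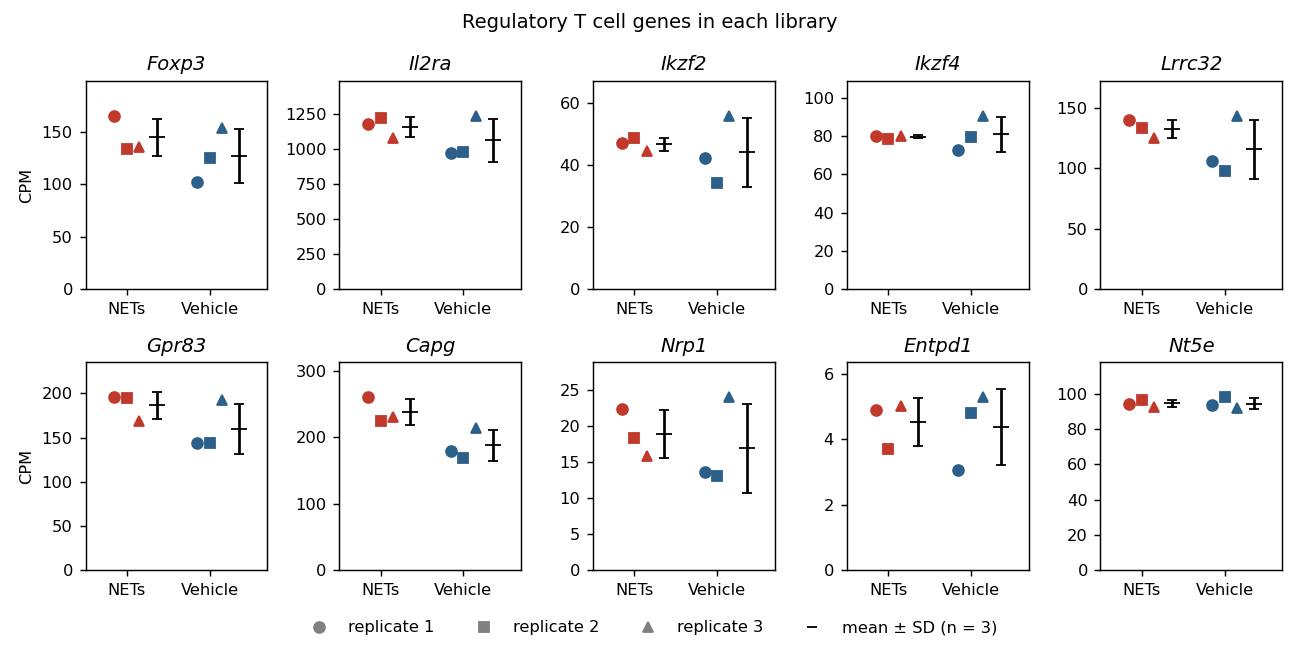
CPM of each gene in each library, NETs left and vehicle right, with a shape for each replicate and a bar for the mean and SD (n = 3). Vehicle replicate 3 (triangle in the right group) lies above all NETs libraries in 6 of the 10 panels, and Capg is the 1 gene whose groups do not overlap.

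Among the transcription factors, Foxp3 (ENSMUSG00000039521; chromosome X, 7579676 to 7595243, + strand) had 166, 134 and 136 CPM in NETs replicates 1 to 3, against 102, 125 and 154 CPM in vehicle replicates 1 to 3. Vehicle replicate 3 was the second highest of the 6 libraries, so the groups overlapped, and the 3 NETs libraries were all above the vehicle mean. The means were 145 ± 17.8 CPM with NETs and 127 ± 26.2 CPM with vehicle (SD, n = 3 each), a fold of 1.15 with a 95% interval of 0.941 to 1.41 (edgeR adjusted p = 0.545). Foxp3 differed 1.63-fold between its highest and lowest library, and its coefficient of variation over the 6 libraries was 16.4%, where counting error alone would give 2.07%.

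Ikzf2, which encodes Helios (chromosome 1, 69531214 to 69687245), had 47.0, 48.7 and 44.5 CPM with NETs and 42.1, 34.2 and 55.9 CPM with vehicle. Its NETs libraries were close together and its vehicle libraries took both the highest and the lowest value. The log2 fold change was 0.10 (SE 0.14; edgeR adjusted p = 0.815). Ikzf4, which encodes Eos, a partner of Foxp3 in gene silencing (chromosome 10, 128630843 to 128645991), had 80.3, 78.7 and 80.3 CPM with NETs and 72.5, 79.6 and 90.7 CPM with vehicle. Here too the NETs values fell inside the vehicle range, and the fold was 0.993 with a 95% interval of 0.860 to 1.15 (edgeR adjusted p = 0.979).

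Il2ra, the alpha chain of the IL-2 receptor (chromosome 2, 11642807 to 11693193), had 1174, 1216 and 1073 CPM with NETs and 969.6, 974 and 1235 CPM with vehicle. All NETs libraries were above vehicle replicates 1 and 2, and vehicle replicate 3 was above all of them. The log2 fold change was 0.13 (SE 0.10; edgeR adjusted p = 0.583). Its counts were the deepest of the set, 15253 to 22361 reads a library, so counting error was 0.725% against a coefficient of variation of 10.7%.

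Of the surface receptors, Lrrc32, the latent TGF-beta anchor (chromosome 7, 98489283 to 98502181), had 139.9, 134 and 125 CPM with NETs and 106, 97.5 and 144 CPM with vehicle. The pattern was that of Il2ra, with vehicle replicate 3 on top, and the log2 fold change was 0.21 (SE 0.12; edgeR adjusted p = 0.482). Gpr83, a G protein-coupled receptor enriched in mouse regulatory T cells (chromosome 9, 14860210 to 14870789), had 196, 195 and 169 CPM with NETs and 143, 144 and 193 CPM with vehicle. Vehicle replicate 3 matched the upper NETs libraries, and vehicle replicates 1 and 2 lay below all NETs libraries. The fold was 1.18 with a 95% interval of 0.997 to 1.39 (edgeR adjusted p = 0.398). Nrp1, a receptor for semaphorins and VEGF that is high on thymus-derived regulatory T cells in mice (chromosome 8, 128358604 to 128503363), had 22.5, 18.4 and 15.9 CPM with NETs and 13.7, 13.2 and 24.1 CPM with vehicle. It varied most of the 10 in relative terms, 1.83-fold from lowest to highest and a coefficient of variation of 25.3% against a counting error of 5.70%. Its log2 fold change was 0.17 (SE 0.22; edgeR adjusted p = 0.772).

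Capg, a gelsolin-family protein that caps actin filaments (chromosome 6, 72544391 to 72562983), had 260.3, 224 and 229.9 CPM with NETs and 180.0, 169 and 214 CPM with vehicle. All 3 NETs libraries were above all 3 vehicle libraries, the closest being NETs replicate 2 and vehicle replicate 3. The means were 238 ± 19.4 CPM with NETs and 188 ± 23.8 CPM with vehicle (SD, n = 3 each), a fold of 1.28 with a 95% interval of 1.11 to 1.48, and the edgeR adjusted p over all genes was 0.223. Capg is also abundant in macrophages, and the macrophage marker sum given above was higher in the NETs libraries too. Among the NETs libraries that sum was lowest in replicate 1 (39.1 CPM), where Capg was highest. The part of macrophage RNA in the Capg values was not tested. With no filter on low counts, a fit in which 0.775% of genes were called higher, Capg passed (edgeR adjusted p = 0.0120).

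The adenosine enzymes differed in depth and spread. Entpd1, which degrades ATP and ADP to AMP (chromosome 19, 40612366 to 40741602), was read 57 to 86 times a library and had 4.89, 3.70 and 5.01 CPM with NETs and 3.06, 4.79 and 5.28 CPM with vehicle. The groups overlapped, and at this depth counting error (11.5%) was a large part of the coefficient of variation (19.7%), so the 95% interval of the fold ran from 0.684 to 1.60. Nt5e, which turns AMP into adenosine (chromosome 9, 88327197 to 88372092), had 94.2, 96.7 and 92.5 CPM with NETs and 93.3, 98.0 and 91.9 CPM with vehicle. It was the steadiest member: its coefficient of variation of 2.56% was close to the 2.48% of counting error, and the 95% interval of its fold was 0.891 to 1.14.

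**Figure D3:**
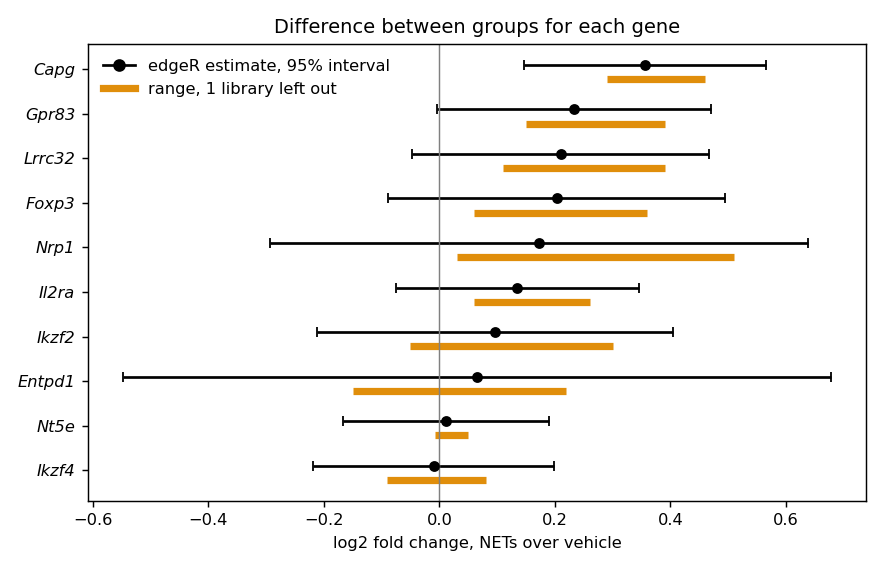
Log2 fold change of each gene, NETs over vehicle, with its 95% interval from edgeR (black) and the range of the estimate when 1 library is left out (orange). The interval of Capg lies above 0, that of Gpr83 just includes 0, and for every gene but Nt5e the orange range ends highest without vehicle replicate 3.

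The number of members called depended on vehicle replicate 3. It held the highest value of 6 of the 10 genes, where 15% of all genes tested were highest in that library, and vehicle replicate 1 or 2 held the lowest value of 9, where 37.6% of all genes did. Averaged over the 10 genes, log2 CPM stood 0.17, 0.04 and 0.03 above the mean of the 6 libraries in NETs replicates 1 to 3, while the differences were -0.26, -0.17 and 0.18 in vehicle replicates 1 to 3. Without vehicle replicate 3, edgeR called 3 of the 10 higher with NETs, in a fit where 1.51% of all genes were called higher: Capg at a log2 fold change of 0.46 (adjusted p = 0.0238), Lrrc32 at 0.39 (adjusted p = 0.0373) and Gpr83 at 0.39 (adjusted p = 0.0389). Foxp3 stood at 0.36 in that fit and did not pass (edgeR adjusted p = 0.0960), nor did Il2ra at 0.26 (adjusted p = 0.106) or Nrp1 at 0.51 (adjusted p = 0.123). Without vehicle replicate 1 the Foxp3 log2 fold change was 0.06. Leaving out any other single library called 0 of the 10, in fits that called between 0 and 2 of all genes.

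The second question was how far the other genes followed Foxp3 over the 6 libraries. On log2 CPM scaled by TMM factors, 8 of the other 9 members had a Pearson r with Foxp3 above 0, with a median of 0.79 over the 9, where 49.9% of 13899 genes had an r above 0. The highest were Nrp1 (r = 0.85, Spearman rho = 0.83) and Gpr83 (r = 0.84, rho = 0.83), each with a two-sided exact permutation p of 0.0250 for r and 0.0583 for rho. Adjusted over all 13899 relations the p was 0.461 for r of both genes and 0.427 for rho. These were 2 of 9 members with an r above 0 at an unadjusted exact p under 0.05, against 4.86% of all genes, and for rho 0 of 9, against 4.65%. With 6 libraries the smallest exact permutation p is 0.00278, and the smallest adjusted p over all genes was 0.336.

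The next members were Il2ra and Entpd1 (r = 0.80 each; rho 0.71 and 0.77), Lrrc32 (r = 0.79, rho = 0.83), Capg (r = 0.78, rho = 0.77) and Ikzf4 (r = 0.77, rho = 0.77), with exact permutation p between 0.0528 and 0.0972 for r and adjusted p of 0.500 to 0.553. Without vehicle replicate 1 alone, r was 0.39 for Entpd1 and 0.40 for Ikzf4. Ikzf2 had a lower r with Foxp3 (r = 0.54, rho = 0.66; exact permutation p = 0.275 for r, adjusted p = 0.678). Nt5e did not follow it, with r = -0.01 and rho = -0.20 (exact permutation p = 0.922 and 0.714). Of all genes tested, 2.99% had a higher r with Foxp3 than Nrp1, 5.22% a higher one than Il2ra and 20.0% a higher one than Ikzf2.

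**Figure D4:**
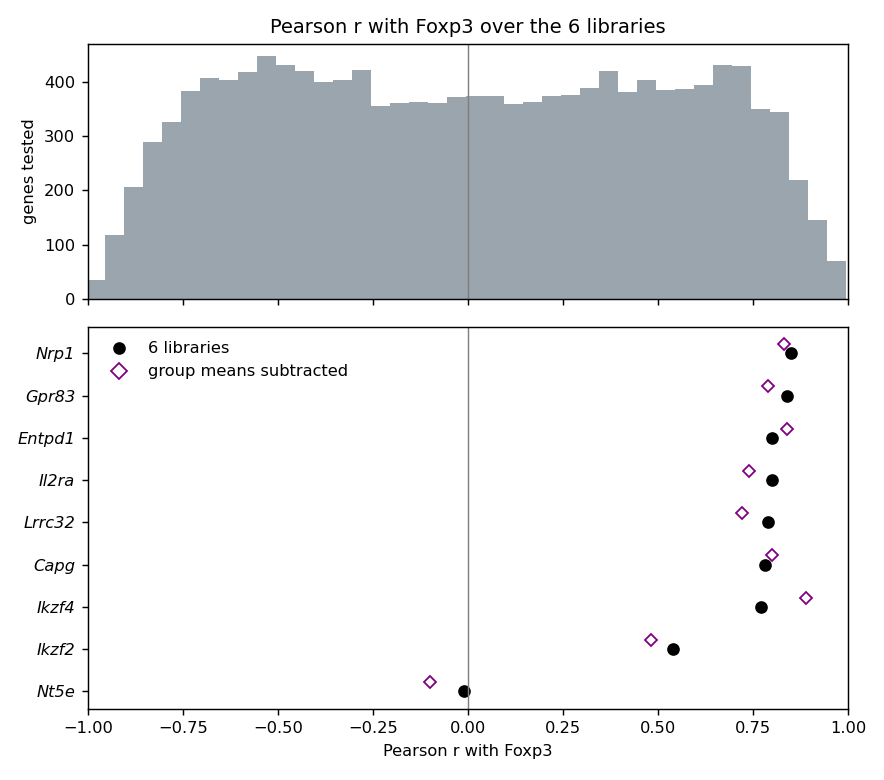
Upper panel: number of genes tested by their Pearson r with Foxp3 over the 6 libraries. Lower panel: r of each of the other 9 members over the 6 libraries (filled) and after subtracting each group's mean (open); 8 lie between 0.48 and 0.89 on both measures and Nt5e is near 0.

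The relation was also measured within groups. After the mean of each group was subtracted, 8 of 9 members again had an r above 0 with Foxp3, against 49.8% of all genes, and the median was 0.79. Ikzf4 then had r = 0.89, Entpd1 0.84, Nrp1 0.83, Capg 0.80, Gpr83 0.79, Il2ra 0.74, Lrrc32 0.72 and Ikzf2 0.48. A group of 3 libraries is too small for a value of its own. The 2 libraries farthest from the Foxp3 median were NETs replicate 1, the highest, and vehicle replicate 1. Without both, over 4 libraries, r was 0.93 for Nrp1, 0.89 for Ikzf4, 0.88 for Ikzf2, 0.83 for Lrrc32, 0.73 for Il2ra and 0.69 for Gpr83, and it was 0.51 for Capg and 0.42 for Entpd1. Nt5e, whose variation was close to counting error, stood at -0.96, so 8 of 9 lay above 0, against 50.8% of all genes.

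**Figure D5:**
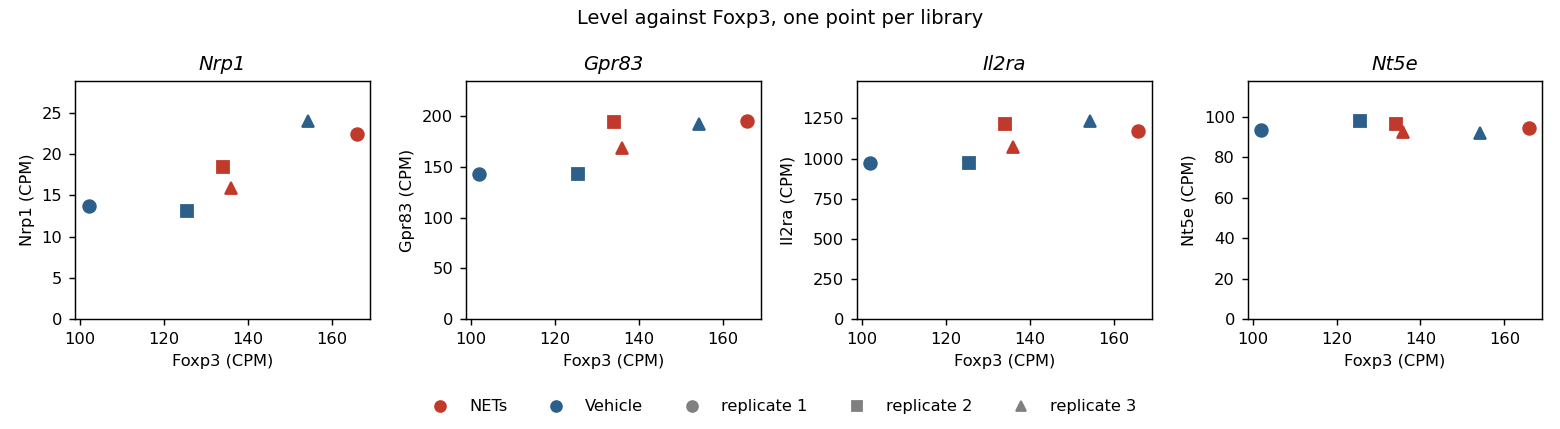
CPM of Nrp1, Gpr83, Il2ra and Nt5e against Foxp3 CPM, 1 point per library, coloured by group and shaped by replicate, with the vertical axis from 0. Vehicle replicate 3 and NETs replicate 1 lie together at the upper right for the first 3 genes, vehicle replicates 1 and 2 lie lowest, and Nt5e is flat.

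The members also followed each other. Over the 36 pairs of the 9 genes without Nt5e, r lay between 0.19 and 0.98 with a median of 0.79, and the highest was between Il2ra and Gpr83 (0.98), followed by Lrrc32 with Gpr83 (0.96) and Il2ra with Lrrc32 (0.95). These values are descriptions over 6 libraries, which the genes share. The libraries low in the members, vehicle replicates 1 and 2, were also the lowest on the first principal component of all genes, at -16.5 and -40.0. Over the 6 libraries, r with that component was 0.94 for Lrrc32, 0.93 for Capg, 0.90 for Gpr83, 0.87 for Nrp1, 0.84 for Il2ra and 0.82 for Ikzf2, each higher than the same gene's r with Foxp3. It was 0.71 for Foxp3, 0.32 for Ikzf4, 0.21 for Entpd1 and -0.41 for Nt5e. With log2 library depth, r was -0.83 for Entpd1 and -0.73 for Ikzf4, and -0.45 for Foxp3. These are descriptions over the same 6 libraries, and the part of that component and of depth in the relations with Foxp3 was not tested.

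The genes whose pattern over the 6 libraries was most like that of Foxp3 were not members. Among genes tested with a mean of at least 5 CPM, the 8 with the highest Pearson r were Prdm11 (0.984), Usp39, a splicing factor (0.979), Lins1 (0.979), Lsm11, a part of the U7 snRNP that processes histone mRNA (0.979), Sfrp2, a secreted modulator of Wnt signalling (0.979), Timm22, a mitochondrial import channel (0.972), Pknox1, a homeobox factor (0.971), and Camkk2, a calcium-dependent kinase (0.971). Usp39, for example, had 71.8, 66.9 and 66.5 CPM with NETs and 54.4, 61.2 and 70.9 CPM with vehicle. Among those with the lowest r were Asb1 (-0.986), Xpnpep3, a mitochondrial aminopeptidase (-0.985), and Rfesd (-0.983). Asb1 had 16.2, 19.0 and 18.0 CPM with NETs and 24.4, 18.8 and 16.7 CPM with vehicle, so vehicle replicate 1, the lowest library for Foxp3, was its highest. All of these genes had an adjusted exact permutation p between 0.336 and 0.375.

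Flicr, a non-coding RNA known in mice to lower Foxp3 expression, is annotated upstream of Foxp3 and into it (chromosome X, 7573600 to 7581015, + strand). The GENCODE M21 exons of both genes share 853 bases. The Foxp3 start there differs from the deposited start by 6032 bases, so how many of the 853 were counted as Foxp3 exon is not known. It was read 53 to 92 times a library, with 5.24, 2.88 and 5.36 CPM with NETs and 4.13, 3.96 and 3.85 CPM with vehicle. The groups overlapped (log2 fold change 0.19, SE 0.29; edgeR adjusted p = 0.830), and since the handling of shared bases in counting is not given in the sources used here, reads there may have been split between both genes or dropped. Ccdc22, on the opposite strand, shares 590 exon bases with Foxp3 and is listed at 0 reads in all 6 libraries. With the strand setting unknown, reads of those bases may have been added to the Foxp3 counts or lost from them. Flicr and Ccdc22 were named after their values were seen.

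Other genes of the regulatory programme, 76 in 4 lists, were also tested: of the 66 with enough reads, 0 passed in either direction by edgeR. The lists, too, were chosen with earlier results of these data known, so their counts beside the shares of all genes are descriptions. Among other surface receptors of regulatory T cells, 16 of 19 were tested, and 11 were above 0, against 50.2% of all genes. The median log2 fold change was 0.10, against 0.001 over all genes. At an unadjusted p under 0.05, 1 was higher (Il2rb) and 1 lower (Il2rg), against 6.72% higher and 6.06% lower over all genes. Il2rb, the IL-2 receptor beta chain, had 1174 ± 27.7 CPM with NETs and 1006 ± 95.8 CPM with vehicle, and Il2rg, the common gamma chain, had 247 ± 17.1 CPM with NETs and 289 ± 15.8 CPM with vehicle (SD, n = 3 each). The 3 chains of the IL-2 receptor thus stood at log2 fold changes of 0.13 (Il2ra), 0.23 (Il2rb) and -0.21 (Il2rg), none past the threshold. Ccr8, a chemokine receptor, stood at 0.36 (SE 0.18; edgeR adjusted p = 0.408).

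Inducers, partners and regulators of Foxp3 were spread around 0: all 31 were tested, 16 lay above 0, against 50.2% of all genes, the median was 0.00, and 4 were higher and 2 lower at an unadjusted p under 0.05, against 6.72% and 6.06% of all genes. Those with the smallest p were Tet2, an enzyme that oxidises methylcytosine and helps keep the Foxp3 locus demethylated, Uhrf1, which maintains DNA methylation, and Nfatc2, a calcium-regulated factor that binds the Foxp3 locus. Tet2 had 49.2, 64.5 and 54.1 CPM with NETs and 88.0, 76.1 and 60.7 CPM with vehicle (log2 fold change -0.41, SE 0.13; edgeR adjusted p = 0.251), and vehicle replicate 3 lay inside the NETs range. Its r with Foxp3 was -0.91, that of Uhrf1 0.58 and that of Nfatc2 0.78. The log2 fold change was 0.32 for Uhrf1 (adjusted p = 0.262) and 0.22 for Nfatc2 (adjusted p = 0.310).

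Among effector and adenosine genes, 12 of 15 were tested, 5 lay above 0, against 50.2% of all genes, and the median was -0.03. At an unadjusted p under 0.05, 3 were higher and 1 lower, against 6.72% and 6.06% of all genes. Lgals3, a galectin also abundant in macrophages, had 10.5, 6.20 and 7.99 CPM with NETs and 4.61, 3.51 and 3.67 CPM with vehicle. These groups did not overlap, with NETs above, as in 7.68% of all genes. The log2 fold change of Lgals3 was 1.07 with an SE of 0.26, and edgeR gave an adjusted p of 0.223. The macrophage marker sum was higher in the NETs libraries as given above. Among them it was lowest in replicate 1, where Lgals3 was highest. The part of macrophage RNA in the Lgals3 values was not tested. Tgfb1, the cytokine that Lrrc32 anchors, had 231 ± 10.1 CPM with NETs and 193 ± 19.5 CPM with vehicle (SD, n = 3 each; adjusted p = 0.258) and followed Foxp3 with r = 0.87. Dpp4, a surface peptidase, stood at -0.22 (adjusted p = 0.359). Of the genes named so far from these lists, Il2rb, Ccr8, Nfatc2 and Tgfb1 also lay wholly above vehicle with NETs. Il2rg and Dpp4 lay wholly below it, as 9.04% of all genes did. Il10 was read once with NETs (1 read) and not with vehicle, where a count of 0 allows up to 3 reads over the group.

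Of 11 genes that Foxp3 is known to repress, 7 were tested. Of these, 0 had a log2 fold change above 0, where 50.2% of all genes did. The median was -0.28, and 3 were lower at an unadjusted p under 0.05, against 6.06% of all genes. Having 0 above 0 was not particular to this list. The 7 T cell markers also had 0 above 0 (median -0.10), with 0 lower at that p. Of the 6 naive markers, 2 lay above 0 (median -0.12) and 1 was lower at that p. Tcf7 is in both the repressed and the naive list. Il7r, the IL-7 receptor alpha chain, had 105, 133 and 146 CPM with NETs and 201, 213 and 154 CPM with vehicle (log2 fold change -0.56, SE 0.14, edgeR adjusted p = 0.223). The groups of Il7r and of Pde3b did not overlap, with NETs below, as in 9.04% of all genes. Pde3b, a phosphodiesterase, had 373 ± 3.31 CPM with NETs and 456 ± 34.8 CPM with vehicle (SD, n = 3 each; edgeR adjusted p = 0.224), and Ptpn22, a phosphatase of T cell receptor signalling, had 157 ± 13.6 CPM with NETs and 193 ± 21.7 CPM with vehicle (adjusted p = 0.265). The r with Foxp3 was -0.77 for Il7r, -0.43 for Pde3b and -0.78 for Ptpn22. It was above 0 for 1 of the 7 repressed genes tested and for 0 of the 7 T cell markers. Ifng and Il17a were at 0 reads in all libraries, which allows up to 3 reads a group. Without vehicle replicate 3, 6 of the 66 tested genes passed (Ccr4, Tet2, Uhrf1, Tgfb1, Il7r and Ptpn22), in both directions, in the fit where 1.51% of all genes were called higher and 1.3% lower.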

How the data were processed

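The authors deposited raw read counts for each Ensembl gene as whole numbers in 2 tables, equal in all 327192 cells compared. Another deposited table gives FPKM, 1 column a library. The submitters' processing notes name STAR, DESeq2 and the build mm9. No source used here gives the counter, the annotation release or the strand setting. Coordinates are those of the deposited table; 9 of the 10 members have the same start and end in GENCODE M21 (GRCm38), so they are read as GRCm38, although the notes name mm9. The start of Foxp3 differs by 6032 bases and its end by 2.

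Genes kept by edgeR's filterByExpr (13900) were scaled by TMM and tested by the quasi-likelihood method with robust dispersion (edgeR 4.0.16, R 4.3.3), two-sided, with group as the only term and Benjamini-Hochberg adjustment over all genes, threshold 0.05. The 95% intervals use the moderated degrees of freedom. Correlations used log2 CPM with a prior count of 2, and exact permutation of the 6 pairings; a two-sided p is 2 times the smaller tail. Alternatives were DESeq2 1.42.0, limma 3.58.1 (voom, and trend on log2 FPKM with pseudocounts of 0.1 and 1), RLE scaling, other filters, a replicate block and leaving out each library.

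The members and lists were chosen with earlier results of these data known. Named genes are all 10 members, the 3 of each list with the smallest p (any that pass would replace them), and the 8 highest and 4 lowest r with Foxp3 at a mean of at least 5 CPM with a symbol that is not provisional, less a gene that is not reported here. Counting errors cover the sampling of reads alone. No molecular identifiers are named.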

Additional observations from a re-analysis of the deposited data

How the results depend on the processing

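The count of members called was 0 of 10 in the reported fit and 0 with RLE scaling, limma-voom, limma-trend on FPKM at both pseudocounts and the replicate block. Over all 13900 genes limma-voom called 1, limma-trend called 2 at each pseudocount, and the other fits just named called 0. With DESeq2 the count was 0 among 129 of 8578 genes called, with Capg at an adjusted p of 0.0520 and no adjusted p for Entpd1. The count was also 0 with a mean CPM of at least 5, which drops Entpd1. It was 1 (Capg) with no filter on low counts, where edgeR called 322 of 24780 genes, 4 of them pathway genes (Tet2, Uhrf1, Lgals3 and Il7r). Leaving out 1 library each moved the count of members between 0 and 3, and that of the other 66 pathway genes between 0 and 6, the upper values without vehicle replicate 3. DESeq2 called 1 of those pathway genes, Il7r.

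Fold changes near 0 changed sign. Nt5e was -0.0015 at a mean CPM of at least 5, and with 1 library left out Nt5e ranged from -0.0083 to 0.05, Ikzf4 from -0.09 to 0.08, Entpd1 from -0.15 to 0.22 and Ikzf2 from -0.05 to 0.30. For Foxp3 the range was 0.06 to 0.36, for Il2ra 0.06 to 0.26, for Nrp1 0.03 to 0.51 and for Capg 0.29 to 0.46, all above 0. The cause was not tested.

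The count of members with an r above 0 with Foxp3 was 8 of 9, and 8 or 9 with FPKM, without TMM, with group means subtracted and with any 1 library left out. The r of Nt5e ranged from -0.66 to 0.26 with 1 library left out. Without vehicle replicate 1, r was 0.40 for Ikzf4 and 0.39 for Entpd1. Overlapping neighbours in the FPKM order stayed at 5 with each library left out, and came to 2 with the deposited gene lengths, both alternatives chosen after seeing the data.

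No label says that replicate numbers mark shared animals or cultures, and same-numbered libraries did not deviate together (correlations of -0.0254, -0.0596 and -0.175 over genes). With the replicate block edgeR called 0 members and 0 pathway genes, Foxp3 stood at a log2 fold change of 0.22, and with number means subtracted all 9 members had an r above 0 with Foxp3, Nt5e at 0.38. Among the members, depth limits Entpd1 most, with a counting error of 11.5%.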

Other observations

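Some annotated genes overlap members. Ccdc22, a protein-coding gene on the opposite strand (chromosome X, 7593809 to 7605517) whose GENCODE M21 exons share 590 bases with those of Foxp3, is listed at 0 reads in all 6 libraries. Gm36995, annotated as a processed transcript on that strand and overlapping both (chromosome X, 7558602 to 7605381), had 32 reads with NETs and 48 with vehicle over 3 libraries each. Within Il2ra lies Gm37881, an annotated transcript of unclassified type on the same strand (chromosome 2, 11683126 to 11683546) that shares no exon base with it. It had 205, 244 and 106 reads in the NETs libraries and 328, 187 and 200 reads in the vehicle libraries. These genes were named after their values were seen.

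The length behind the authors' FPKM is not given, and was inferred here from the counts, their sum per library and the FPKM. This inferred length was shorter than the deposited gene length for all 10 members. It came to 3706 of 3989 bases for Foxp3, but to 1059 of 5580 for Entpd1, 794 of 2529 for Capg and 2453 of 11613 for Ikzf2. The order of FPKM levels between members depends on lengths whose choice is not given in the sources used here.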
